A study of Danio rerio with 45 samples.

Results

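The genes of the MCM helicase were followed through the first hours of zebrafish (Danio rerio) development in embryos of the strain AB/PS. The members are the genes whose symbol is mcm2 to mcm7, with or without a final l, or mcm10, which picked out 9 of the 31966 genes listed: mcm2, mcm3, mcm3l, mcm4, mcm5, mcm6, mcm6l, mcm7 and mcm10. Wild-type embryos (WT) were set beside embryos that had received a morpholino directed at rad21 (Rad21 MO) or at ctcf (CTCF MO); morpholinos are short synthetic oligomers that stop a transcript from being translated or spliced. The Rad21 protein is part of cohesin, the ring that holds sister chromatids together, and CTCF binds DNA and sets where cohesin halts. Whole embryos were taken at 2.5 hours post fertilisation (hpf) and at 3.3 hpf, then at 4.5 hpf, 5.3 hpf and 10 hpf, from cleavage through the onset of zygotic transcription to the end of gastrulation. Each of the 15 groups of treatment and stage held 3 libraries of ribosome-depleted total RNA, each made from 100 pooled embryos that were matched in stage by eye. Every Rad21 MO and CTCF MO group was compared with the WT group of its own stage, so both knockdowns share their controls. Nothing in the labels ties the pools of a group to separate clutches, and they are silent on any injection of WT embryos, so p-values measure only the spread between pools and that spread may be technical.

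Mcm2 to Mcm7 form the ring-shaped helicase that unwinds DNA at replication forks. The ring is loaded onto origins by the origin recognition complex with Cdc6 and Cdt1, and it is switched on by Cdc45, the GINS complex and S phase kinases. Mcm10 is not part of the ring; it binds the loaded helicase and is needed for origins to fire. In the frog Xenopus, Mcm3 and Mcm6 each exist as a maternal and a zygotic form, and the RefSeq synonyms of the zebrafish genes follow the same naming (MCM3m for mcm3l, MCM3z for mcm3, MCM6m for mcm6l and MCM6z for mcm6). Early embryos replicate their DNA in short cycles on proteins and RNA that the egg supplied.

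Levels are FPKM (fragments per kilobase of transcript, scaled to the mapped fragments of the library) as deposited by the authors, so levels of different genes are compared per length. Sums of FPKM over a library ran from 676000 to 1816000, and between 12788 and 15833 genes reached 1 FPKM. Within groups, the correlation across genes between libraries lay between 0.967 and 0.986. The table gives no read totals. An estimate from the commonest ratio of values under 0.3 FPKM between libraries spanned 2.48-fold. It cannot separate depth from how the libraries were scaled. All 5 enveloping layer markers were detected from 4.5 hpf on, and all 5 germline markers were found, as whole embryos should show. Of 9 genes of ovarian somatic cells, 8 were below 1 FPKM in WT at 2.5 hpf; the exception was cyp11a1. For 2 Rad21 MO libraries the age label swaps 3.3 and 4.5 hpf against the title. The columns cannot be matched to them. All 6 Rad21 MO columns named for these stages correlated better with WT of the named stage than with WT of the other. WT of further stages was not compared.

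As a check on the labels, the RNAs of the targeted genes are given here. The rad21a RNA of WT embryos averaged 143.0 ± 13.6, 203.1 ± 10.4 and 170.0 ± 31.7 FPKM at 4.5, 5.3 and 10 hpf, and in Rad21 MO embryos 100.5 ± 10.3, 154.1 ± 10.5 and 182.8 ± 10.7 (SD, n = 3). In WT, ctcf averaged 399.0 ± 46.2, 496.2 ± 22.0 and 150.3 ± 6.66 FPKM at the same stages, and in CTCF MO embryos 259.8 ± 55.3, 237.0 ± 3.39 and 155.4 ± 13.1. Because morpholinos act on translation or splicing, the amount of target RNA does not measure how much protein was lost.

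Of the 9 members, 8 could be measured. The row of mcm2 (Zv9_NA237, 11388 to 31977), the Mcm2 subunit of the ring, is listed at 0 in all 45 libraries. The same holds for all 1225 genes placed on unassembled Zv9 sequences, so its 0 carries no information on mcm2 RNA. The others lie, on the Zv9 build, on chromosome 20 (mcm3, 34794804 to 34825789, and mcm3l, 6598626 to 6637441), chromosome 6 (mcm6, 12880020 to 12897310), chromosome 2 (mcm6l, 50769975 to 50795733), chromosome 24 (mcm4, 37031304 to 37056313), chromosome 3 (mcm5, 27023666 to 27035630), chromosome 14 (mcm7, 201290 to 212779) and chromosome 4 (mcm10, 7031280 to 7049883). A further row, MCM3 (2 of 2) on chromosome 16 (54766748 to 54780384), falls outside the naming rule. It followed mcm3 closely, with r = 0.993 over the 45 libraries and a ratio to mcm3 between 0.672 and 1.44 in the 27 libraries from 4.5 hpf on. Reads could have been split between these rows, so the level of mcm3 is uncertain, and results that depend on it are also given with both rows summed.

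In WT, the l copies of Mcm3 and Mcm6 came down while the other copies came up. At 2.5 hpf mcm3l stood at 82.3, 102.3 and 92.1 FPKM and mcm6l at 106.5 ± 12.3 (SD, n = 3). In contrast, mcm3 read 0.125, 0.327 and 0.271 FPKM and mcm6 was listed at 0 in 2 libraries and at 0.133 in the third. The l copies were therefore more than 90% of the RNA of each pair at that stage, at 99.75% ± 0.0902 for mcm3l and 99.95% ± 0.0819 for mcm6l. At 10 hpf mcm3l read 1.65, 0.414 and 0.877 FPKM and mcm6l 3.13, 1.88 and 3.73. There mcm3 read 44.3, 49.8 and 47.2 FPKM and mcm6 171.8, 233.6 and 245.3. By then the l copies were 2.08% ± 1.40 and 1.36% ± 0.509 of their pairs. In bulk RNA from whole embryos, fewer cells of a type and less RNA per cell cannot be told apart.

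The handover of the 2 pairs did not run in step. The mcm3l RNA fell at each step after 3.3 hpf, from 82.1 ± 1.75 FPKM at 3.3 hpf to 43.1, 41.2 and 46.8 at 4.5 hpf (log2 change -0.90, SE 0.174, adjusted p = 0.000784, limma) and to 19.0, 21.02 and 23.0 at 5.3 hpf (-1.02, adjusted p = 0.00158). The mcm6l RNA was 100.8 ± 4.195 FPKM at 3.3 hpf, 108.5 ± 5.95 at 4.5 hpf and 101.0 ± 13.9 at 5.3 hpf, with overlapping libraries and no step that passed the test. This level course holds on the deposited scale. Mean FPKM sums of WT libraries were 770100, 1164000 and 1460000 at these stages, so relative to library totals mcm6l went down. Its steps after rescaling are not given here. From 5.3 to 10 hpf mcm6l fell to 2.88% of its level (log2 change -4.73, SE 0.157, adjusted p = 1.21e-11). Meanwhile mcm3 rose from 0.824 ± 0.272 FPKM at 3.3 hpf to 13.3, 22.4 and 16.0 at 4.5 hpf (log2 change 3.30, SE 0.175, adjusted p = 8.49e-09) and to 33.5, 33.9 and 29.1 at 5.3 hpf (0.89, adjusted p = 0.00338). The mcm6 RNA rose from 0.973 ± 0.395 FPKM to 18.6, 32.5 and 34.3 (log2 change 3.87, SE 0.245, adjusted p = 4.46e-08), then to 76.9, 83.7 and 51.1 (1.30, adjusted p = 0.00271). From 5.3 to 10 hpf it rose again, 3.07-fold by the ratio of means (log2 change 1.62, adjusted p = 4.77e-05), while mcm3 rose 1.46-fold (0.54, adjusted p = 0.0145). That call of mcm3 ended in 5 of 12 alternatives, among them libraries rescaled to one FPKM sum (0.41, adjusted p = 0.0734), the sum with MCM3 (2 of 2), and leaving out WT column 2 at 5.3 hpf or column 1 at 10 hpf. With MCM3 (2 of 2) added to mcm3, the mcm3l share at 4.5 and 5.3 hpf was 57.96% and 25.33% instead of 71.87% ± 6.22 and 39.53% ± 4.11.

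**Figure D1:**
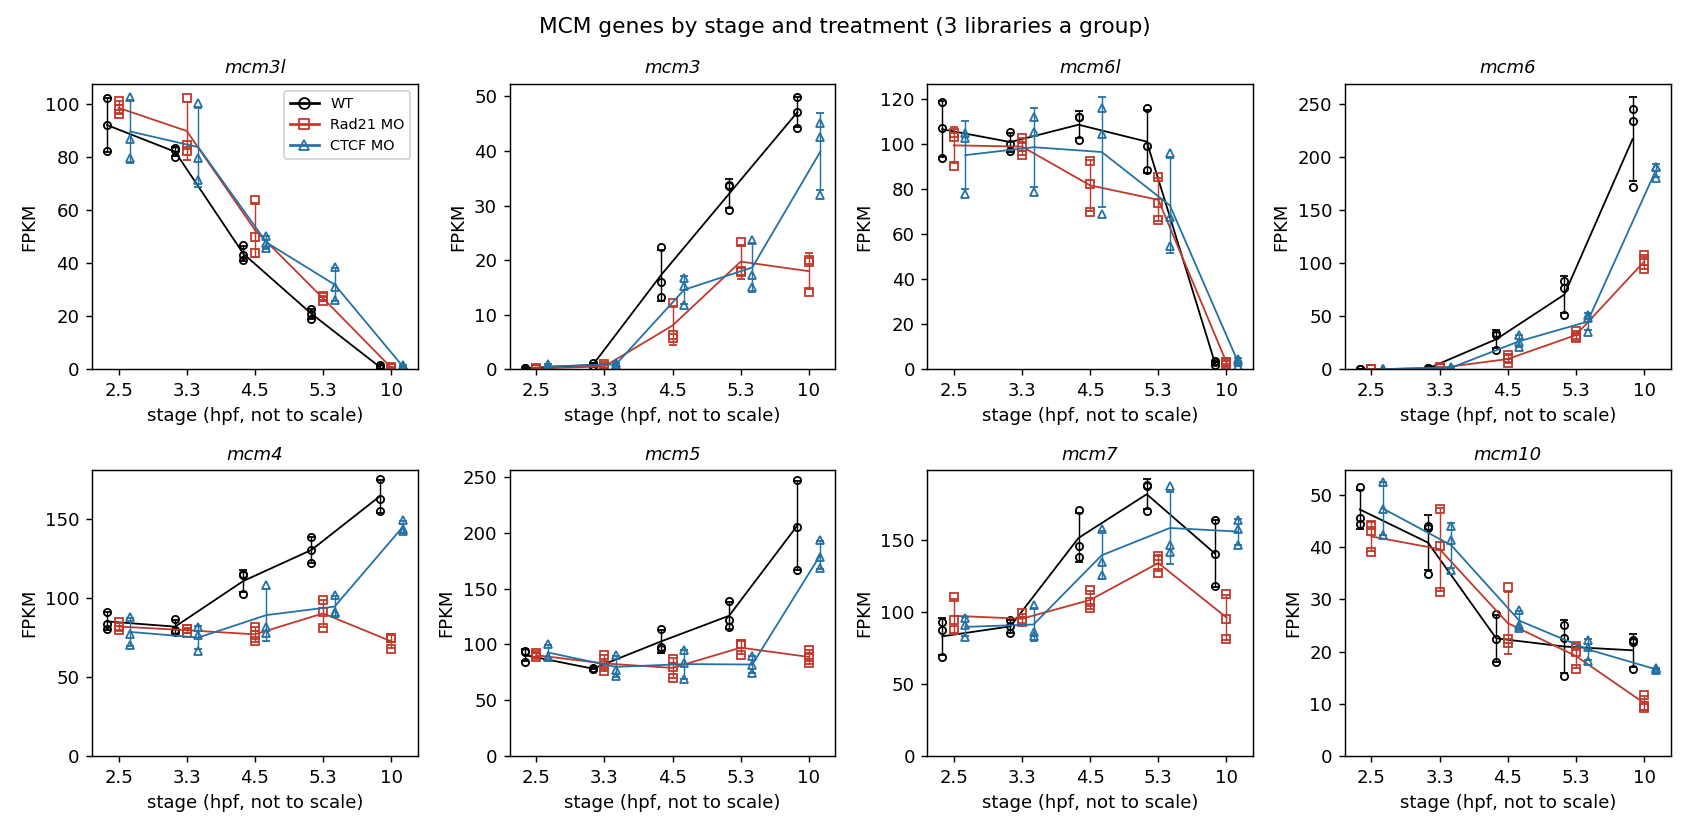
FPKM (vertical axis, linear from 0) of the 8 measured MCM genes at 5 stages in hpf (horizontal axis, not to scale) in WT (black circles), Rad21 MO (red squares) and CTCF MO (blue triangles) embryos. Each point is 1 library, lines join group means and bars are SD (n = 3); mcm3l and mcm6l end near 0 at 10 hpf in every treatment, and at that stage the red points lie below the black ones for mcm3, mcm4, mcm5, mcm6, mcm7 and mcm10.

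The ring genes without a second copy, mcm4, mcm5 and mcm7, were present from the first stage and followed another course. In WT, mcm4 went from 85.1 ± 5.68 FPKM at 2.5 hpf to 110.6 ± 6.97 at 4.5 hpf and 164.0 ± 10.2 at 10 hpf (SD, n = 3). For mcm5 the same stages gave 90.6 ± 5.06, 102.7 ± 9.92 and 206.4 ± 40.1 FPKM. The mcm7 RNA peaked earlier: 83.1 ± 12.8 FPKM at 2.5 hpf, 151.3 ± 16.9 at 4.5 hpf, 181.6 ± 10.4 at 5.3 hpf and 140.5 ± 23.1 at 10 hpf. Its step from 3.3 to 4.5 hpf was a rise (log2 change 0.74, adjusted p = 0.000447, limma) and that from 5.3 to 10 hpf a fall (-0.38, adjusted p = 0.0215). This last call ended without WT column 1 or 2 at 5.3 hpf or column 1 at 10 hpf. Over that step mcm4 and mcm5 rose (0.33, adjusted p = 0.00302, and 0.70, adjusted p = 0.000201), but with every library rescaled to one FPKM sum mcm4 no longer passed (0.21, adjusted p = 0.125). From 3.3 to 4.5 hpf mcm4 and mcm5 also passed the test as rises (0.43, adjusted p = 0.000792, and 0.38, adjusted p = 0.0217), but this direction depends on the scale: with every library rescaled to the same FPKM sum, their changes were -0.16 and -0.21 and mcm7 no longer passed. Mean FPKM sums of WT libraries went from 770100 to 1164000 between these stages, and rescaling moved the median change of all genes from 0.03 to -0.35, against which mcm4 and mcm5 stood 0.19 and 0.14 higher. The rises of mcm3 and mcm6 and the fall of mcm3l over this step passed the test under all 12 alternatives tried.

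The helicase partner mcm10 went down early in WT, and only its step from 3.3 to 4.5 hpf passed the test. From 2.5 to 3.3 hpf all libraries were already lower, without passing. It read 51.5, 44.5 and 45.5 FPKM at 2.5 hpf, 34.8, 43.7 and 44.0 at 3.3 hpf, and 18.1, 22.4 and 27.1 at 4.5 hpf, the last step being a fall (log2 change -0.84, SE 0.187, adjusted p = 0.00211, limma). It then stayed within 20.97 ± 5.08 FPKM at 5.3 hpf and 20.3 ± 3.11 at 10 hpf, with overlapping libraries.

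Counted over the WT course, no member passed the test from 2.5 to 3.3 hpf (limma; 2 at an unadjusted p under 0.05), a step at which 2.06% of all genes were called higher and 0.402% lower. From 3.3 to 4.5 hpf 5 members rose and 2 fell, when 25.3% of all genes tested were called higher and 21.4% lower. From 4.5 to 5.3 hpf 2 rose and 1 fell (14.1% and 10.2% of all genes), and from 5.3 to 10 hpf 4 rose and 3 fell (37.7% and 31.2%). Large parts of the transcriptome changed over these steps, and the members' counts are to be read against those shares.

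The order of the members changed with stage. At 2.5 hpf the WT levels ran mcm6l, mcm3l, mcm5, mcm4 and mcm7, each overlapping the next, then mcm10 below them, then mcm3 and mcm6 near 0. At 10 hpf mcm6, mcm5, mcm4 and mcm7 led, each again overlapping its neighbour. They were followed by mcm3, mcm10, mcm6l and mcm3l, each apart from the one before. With both copies of a subunit added up, and MCM3 (2 of 2) counted as Mcm3, the 5 measured ring subunits were close to even at first. The highest was 1.39 ± 0.288 times the lowest at 2.5 hpf and 1.30 ± 0.0510 times at 3.3 hpf. This ratio was 2.03 ± 0.126 at 4.5 hpf, 2.21 ± 0.159 at 5.3 hpf and 2.52 ± 0.367 at 10 hpf (SD, n = 3), with Mcm3 the lowest subunit at each of these 3 stages, at 76.2, 83.3 and 86.9 FPKM. In Rad21 MO embryos at 10 hpf it was 3.10 ± 0.0894, with Mcm3 at 34.6 FPKM.

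At 2.5 and 3.3 hpf the test called no member in either knockdown. At 2.5 hpf 6 members could be tested and at 3.3 hpf 7, and the count of calls was 0 (limma; 0 at an unadjusted p under 0.05 in each of these 4 comparisons). Of all genes tested, 0% were called at 2.5 hpf, and at 3.3 hpf 0.164% higher and 0.00712% lower in Rad21 MO and 0.0498% higher and 0.00712% lower in CTCF MO. The summed FPKM of mcm3 to mcm7 with both l copies was 457.7 ± 20.4 for WT at 2.5 hpf, 468.0 ± 5.36 for Rad21 MO and 446.7 ± 45.4 for CTCF MO. At 3.3 hpf it was 434.9 ± 13.1, 448.6 ± 19.5 and 431.1 ± 58.3 (SD, n = 3).

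At 4.5 hpf the newly made copies were the members furthest below WT in Rad21 MO embryos. The mcm6 RNA read 10.4, 13.4 and 5.79 FPKM against 18.6, 32.5 and 34.3 in WT, 34.7% of the WT mean (log2 change -1.46, SE 0.309, adjusted p = 0.013, limma). For mcm3 the Rad21 MO libraries read 6.34, 12.1 and 5.68 FPKM against 13.3, 22.4 and 16.0 (-1.05, SE 0.279, adjusted p = 0.0281). All 3 Rad21 MO libraries lay below all 3 WT libraries for both genes. Of the subunits present from the start, mcm4 was at 76.8, 81.7 and 72.4 FPKM against 102.5, 114.4 and 114.8 (-0.52, adjusted p = 0.025), and mcm7 at 102.9, 115.5 and 106.6 against 145.7, 170.4 and 137.9 (-0.48, adjusted p = 0.0243). These 4 of 8 members fell, meaning below WT of the same stage, and none rose, when 10.1% of all genes were called lower and 10.6% higher. In 6 of 8 members all libraries lay below WT, against 21.5% of all genes. The median change of the members was -0.44, that of all genes -0.07. The values of mcm5 (-0.38, adjusted p = 0.0857), mcm6l (-0.41, adjusted p = 0.138), mcm3l (0.25, adjusted p = 0.231) and mcm10 (0.16, adjusted p = 0.571) did not pass.

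The calls of mcm3, mcm4 and mcm7 at 4.5 hpf were not firm, while that of mcm6 held in all 13 alternatives. The count of 4 dropped to 1 without the WT library of column 1, to 2 without that of column 2, and to 1 without the Rad21 MO library of column 0 or column 2. With libraries rescaled to one FPKM sum, mcm6 was the call left. Rescaling moved the median of all genes to 0.19 and the split of all calls to 1950 higher and 73 lower, from 1576 and 1501. Rescaling shifts the genes of a library nearly together. Changes relative to the median of all genes therefore move little by construction and do not test the calls. For mcm6 this relative change was -1.39 as deposited and -1.34 rescaled, and for mcm3 -0.98 and -0.94. For mcm4 it was -0.45 and -0.39, and for mcm7 -0.40 and -0.35.

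At 5.3 hpf the same direction was found in Rad21 MO embryos and 5 of 8 members fell, with none called higher. The mcm6 RNA read 30.0, 36.5 and 30.9 FPKM against 76.9, 83.7 and 51.1 in WT (log2 change -1.07, SE 0.199, adjusted p = 0.00601, limma). For mcm4 the values were 90.8, 81.2 and 98.5 against 138.5, 130.1 and 122.0 FPKM (-0.53, adjusted p = 0.00674). In both genes the groups did not overlap, and in 6 members all libraries lay below WT, against 20.3% of all genes. The other calls were mcm3 (61.4% of WT, -0.68, adjusted p = 0.0223), mcm7 (73.7%, -0.44, adjusted p = 0.0247) and mcm5 (77.3%, -0.37, adjusted p = 0.0352). Of all genes 9.9% were called lower and 12.2% higher, and the members' median change was -0.43 against -0.03 for all genes. The l copy mcm3l was the 1 member above WT in all libraries (20.8% of all genes), with 27.6, 25.7 and 27.3 against 19.0, 21.02 and 23.0 FPKM, without passing (0.34, adjusted p = 0.118), while mcm6l lay below in all libraries (-0.42, adjusted p = 0.154). The mcm10 libraries overlapped (-0.10, adjusted p = 0.732). Leaving out single libraries brought the count to 3 (WT column 0, Rad21 MO column 1) or 2 (WT column 1, Rad21 MO columns 0 and 2), and it was 1 after rescaling, where the split of all calls was 3534 higher and 106 lower against 1856 and 1506. The call of mcm6 held throughout. Relative to the median of all genes its change was -1.04 as deposited and -0.97 rescaled, a difference that rescaling hardly alters by construction.

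**Figure D2:**
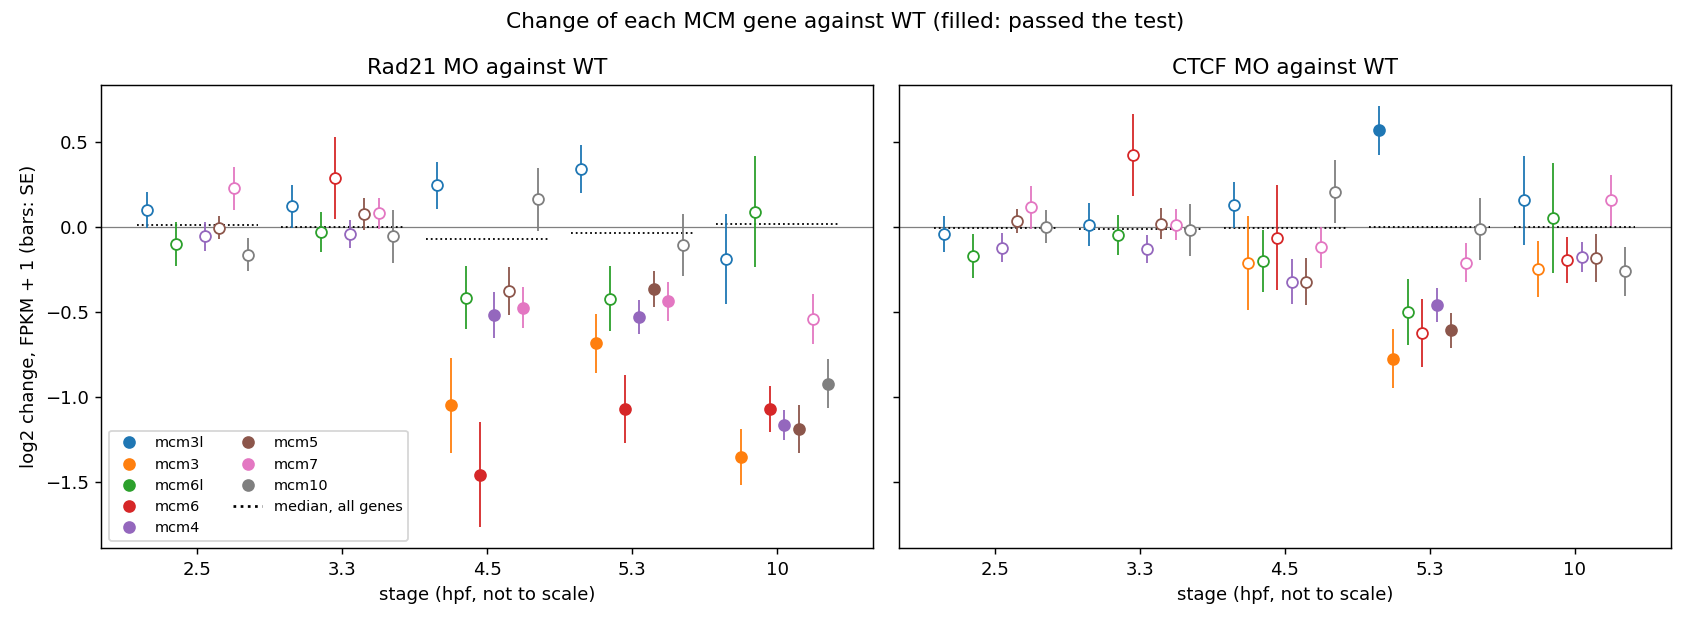
Log2 change against WT of the same stage (vertical axis, on FPKM + 1; bars are SE, n = 3 against 3) for each MCM gene by stage in hpf (horizontal axis, not to scale), Rad21 MO on the left and CTCF MO on the right. Filled points passed the test (adjusted p under 0.05) and dotted lines are the median of all genes; in Rad21 MO 4, 5 and 5 members were called lower at 4.5, 5.3 and 10 hpf, and in CTCF MO 3 lower and 1 higher at 5.3 hpf.

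In CTCF MO embryos the members differed from WT at 5.3 hpf. There mcm5 read 74.7, 81.7 and 89.8 FPKM against 122.1, 139.3 and 115.6 in WT (log2 change -0.61, SE 0.105, adjusted p = 0.0105, limma), mcm4 90.7, 101.9 and 90.8 against 138.5, 130.1 and 122.0 (-0.46, adjusted p = 0.0247), and mcm3 15.02, 17.2 and 23.8 against 33.5, 33.9 and 29.1 (-0.78, adjusted p = 0.0274). The groups did not overlap in any of the 3. The l copy mcm3l was higher, with 31.0, 38.7 and 26.4 FPKM against 19.0, 21.02 and 23.0 (0.57, SE 0.143, adjusted p = 0.0384). In all, 3 of 8 members fell and 1 rose, when 3.87% of all genes were called lower and 5.07% higher, and the members' median was -0.48 against 0.00 for all genes. In 4 members all libraries lay below WT and in 1 above, against 13.5% and 14.4% of all genes. The mcm6 libraries, 35.6, 51.1 and 48.5 FPKM, all lay below WT without passing (-0.62, adjusted p = 0.082). The values of mcm6l (-0.50, adjusted p = 0.142), mcm7 (-0.21, adjusted p = 0.291) and mcm10 (-0.01, adjusted p = 0.98) did not pass either. The count of 3 was 1 without WT column 0 or 1 or CTCF MO column 0 or 1, and mcm3l was not called without any one of these. After rescaling none was called lower, with the split of all calls at 1680 higher and 88 lower against 772 and 589. Relative to the median of all genes, mcm5 was -0.61 as deposited and -0.56 rescaled, and mcm3l 0.57 and 0.60. Such differences hardly move under rescaling by construction and do not test the calls.

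At 4.5 hpf no member passed in CTCF MO embryos (limma; 2 at an unadjusted p under 0.05), as in the table at large, where 0.00671% of genes were called higher and 0% lower. The lowest values there were those of mcm4 (-0.32, adjusted p = 0.297) and mcm5 (-0.32, adjusted p = 0.322), the latter with 69.0, 94.8 and 83.6 FPKM below all WT libraries. At 10 hpf again none passed (limma; 0 at an unadjusted p under 0.05), with 0.00607% of all genes called higher and 0.0121% lower. At that stage mcm4 read 143.4, 149.1 and 141.9 FPKM against 162.1, 154.9 and 175.0 in WT, mcm5 180.2 ± 12.6 against 206.4 ± 40.1, and mcm6 187.4 ± 5.84 against 216.9 ± 39.5 (SD, n = 3). From 5.3 to 10 hpf these 3 genes went up 1.53-fold, 2.195-fold and 4.16-fold in CTCF MO embryos, and 1.26-fold, 1.64-fold and 3.07-fold in WT. The test of that difference was not passed by any member (limma, 3 at an unadjusted p under 0.05; mcm5 0.43, adjusted p = 0.137), against 1.47% of all genes called higher and 2.95% lower.

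At 10 hpf 4 ring genes and mcm10 were lower in Rad21 MO than in WT embryos, each at 50.2% of WT or less. The mcm4 RNA read 74.8, 67.8 and 74.9 FPKM against 162.1, 154.9 and 175.0 in WT, 44.2% of WT (log2 change -1.17, SE 0.089, adjusted p = 0.00139, limma). For mcm5 the values were 95.1, 83.1 and 88.4 against 166.8, 205.4 and 246.9 FPKM (-1.19, SE 0.141, adjusted p = 0.00596). The groups were far apart in both genes, the highest Rad21 MO library lying below the lowest WT library. The mcm3 RNA read 20.0, 14.2 and 19.8 against 44.3, 49.8 and 47.2 FPKM, 38.2% of WT (-1.35, SE 0.166, adjusted p = 0.00659). The related row MCM3 (2 of 2) was at 15.9 ± 0.548 against 38.8 ± 2.10 FPKM (SD, n = 3). The mcm6 RNA read 107.8, 94.7 and 102.4 against 171.8, 233.6 and 245.3 FPKM (-1.07, SE 0.135, adjusted p = 0.00702). The calls of mcm3, mcm4, mcm5 and mcm6 held in all 13 alternatives.

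Mcm10 joined the ring genes at this stage. Its Rad21 MO libraries read 9.66, 9.16 and 11.7 FPKM against 16.7, 21.9 and 22.2 in WT (log2 change -0.92, SE 0.144, adjusted p = 0.0168, limma), a call that ended without WT column 1 or 2 or Rad21 MO column 1. The mcm7 libraries, 81.6, 94.8 and 112.1 FPKM, also lay below all WT libraries (163.9, 117.7 and 140.1) but did not pass (-0.54, adjusted p = 0.0905). The l copies were near their floor in both groups, mcm3l at 0.687 ± 0.155 against 0.981 ± 0.625 FPKM and mcm6l at 3.12 ± 0.590 against 2.91 ± 0.941 (SD, n = 3), and neither passed (adjusted p = 0.761 and 0.916). In all, 5 of 8 members fell and none rose, when 2.44% of all genes tested were called lower and 0.789% higher. In 6 members all libraries lay below WT, against 14% of all genes. The median change was -0.997 for the members and 0.02 for all genes.

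The level of mcm4 in Rad21 MO embryos at 10 hpf lay below each of the 15 WT libraries of any stage, of which the lowest read 78.7 FPKM, and so did that of mcm10, whose lowest WT library read 15.3. These were 2 of 8 members, against 2.84% of all genes. The other members that fell, mcm3, mcm5 and mcm6, lay within the range WT passed through at earlier stages. These comparisons across stages hold on the deposited scale. Mean FPKM sums of all genes were 765600 in WT at 2.5 hpf, 1600000 in WT at 10 hpf and 1572000 in Rad21 MO at 10 hpf. Which members lie within the WT range therefore depends on scale, and rescaled values were not compared across stages.

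Whether the Rad21 MO effect itself changed between stages was tested over all 45 libraries. From 5.3 to 10 hpf it became more negative for mcm5 (difference of log2 changes -0.83, SE 0.163, adjusted p = 0.000583, limma), mcm4 (-0.64, SE 0.136, adjusted p = 0.00126) and mcm10 (-0.82, SE 0.231, adjusted p = 0.0142), 3 of 8 members, when 9.1% of all genes were called in that direction and 5% in the other. In FPKM, mcm4 went from 90.2 to 72.5 in Rad21 MO while it went from 130.2 to 164.0 in WT, and mcm5 from 97.2 to 88.9 while it went from 125.7 to 206.4. For mcm6 the difference was 0.00 (SE 0.341, adjusted p = 1): it went up 3.13-fold in Rad21 MO and 3.07-fold in WT, from a lower start. The values of mcm3 (-0.67, adjusted p = 0.174) and mcm7 (-0.11, adjusted p = 0.77) did not pass. The call of mcm10 ended without WT column 2 at 5.3 hpf. From 4.5 to 5.3 hpf no member passed this test for Rad21 MO or CTCF MO (limma, 0 at an unadjusted p under 0.05 in both). Of all genes, 0.0264% were called higher and 0.0528% lower for Rad21 MO, and 0.0106% and 0% for CTCF MO. The members' median difference was 0.025 for Rad21 MO and -0.253 for CTCF MO, against 0.039 and 0.005 for all genes.

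The knockdowns were also compared with each other directly. At 10 hpf 6 of 8 members were lower in Rad21 MO than in CTCF MO embryos, when 2.54% of all genes were called lower and 0.843% higher. The difference was -1.11 for mcm3 (adjusted p = 0.0146, limma), -0.99 for mcm4 (adjusted p = 0.00357), -1.01 for mcm5 (adjusted p = 0.0119), -0.88 for mcm6 (adjusted p = 0.0157), -0.70 for mcm7 (adjusted p = 0.0403) and -0.66 for mcm10 (adjusted p = 0.0431). Only the call of mcm4 held in all 13 alternatives, and the count was 1 without Rad21 MO column 1 or column 2, 2 without CTCF MO column 0 and 3 after rescaling. At 5.3 hpf none passed (limma; 2 at an unadjusted p under 0.05), with 1.75% of all genes called lower and 2.75% higher. At 4.5 hpf mcm6 alone was lower (-1.40, adjusted p = 0.0484), against 1.25% and 1.51% of all genes, and this call ended without any one of the 6 libraries compared.

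The share of the l copy put the pairs on a scale of their own, as a ratio within 1 library that rescaling does not touch. At 4.5 hpf mcm3l was 76.4%, 64.8% and 74.5% of mcm3l plus mcm3 in WT and 91.0%, 80.5% and 88.5% in Rad21 MO embryos. At 5.3 hpf it was 36.2%, 38.3% and 44.1% in WT, 60.7%, 52.4% and 60.2% in Rad21 MO, whereas CTCF MO libraries gave 67.4%, 69.2% and 52.6%. The knockdown libraries lay above all WT libraries in these 3 comparisons, by 14.8, 18.2 and 23.5 percentage points on average. Each had an exact two-sided permutation p of 0.1, the smallest that 3 against 3 libraries can give, and 0.4 after adjustment over the 20 comparisons of shares. Adding MCM3 (2 of 2) to mcm3 gave 57.96% for WT and 79.19% for Rad21 MO at 4.5 hpf, and 25.33%, 41.97% and 48.60% for WT, Rad21 MO and CTCF MO at 5.3 hpf. At 4.5 hpf the share in CTCF MO was 76.7% ± 3.00, overlapping WT (exact permutation p = 0.4).

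The mcm6l share was less far apart. At 4.5 hpf it was 79.4% ± 5.55 for WT, 89.1% ± 4.83 for Rad21 MO and 77.9% ± 4.88 for CTCF MO (SD, n = 3). At 5.3 hpf it was 59.0% ± 9.32, 69.7% ± 4.62 and 61.4% ± 3.57. The libraries overlapped at both stages (exact permutation p = 0.2 for Rad21 MO at each, 0.7 for CTCF MO at each). In Rad21 MO mcm6l was itself below WT in all libraries at both stages, whereas the mean of mcm3l was above that of WT. At 10 hpf the switch was complete in every group: the l copies made up 3.75% ± 0.981 and 3.00% ± 0.684 of their pairs in Rad21 MO, and for CTCF MO 2.80% ± 0.645 and 1.69% ± 0.860. In Rad21 MO the mcm6l share then lay above WT in all libraries, by 1.64 points (exact permutation p = 0.1, adjusted 0.4).

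**Figure D3:**
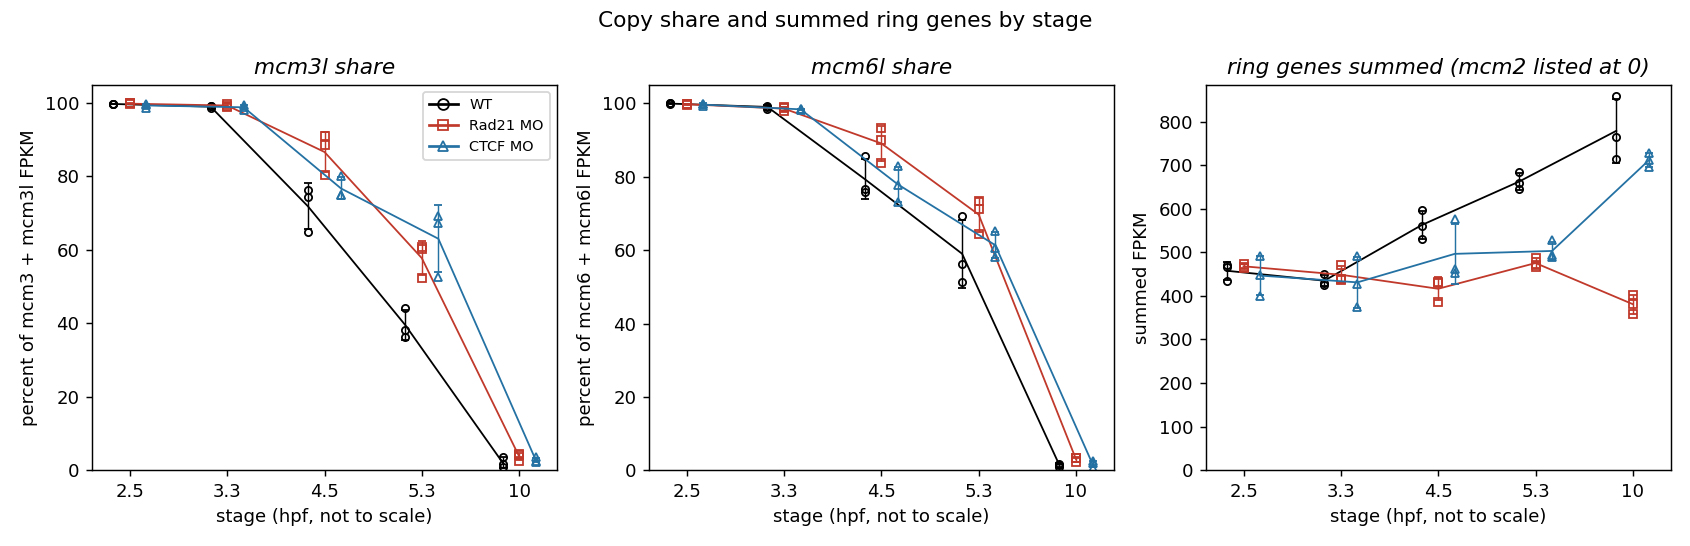
Share of the l copy in percent of its pair for mcm3l (left) and mcm6l (middle), and summed FPKM of the ring genes (right), by stage in hpf (not to scale); points are libraries, lines join group means and bars are SD (n = 3). At 5.3 hpf the 3 Rad21 MO and 3 CTCF MO points of the mcm3l share lie above the 3 WT points, and at 10 hpf the summed ring genes of Rad21 MO lie between 358.6 and 402.0 FPKM against 713.7 to 859.1 in WT.

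Summed over the ring, the mean level as deposited grew 1.70-fold in WT from 2.5 to 10 hpf. In Rad21 MO it went from 416.4 FPKM at 4.5 hpf up to 475.4 at 5.3 hpf and then down to 381.0 at 10 hpf. Mean FPKM sums of all genes rose from 765600 to 1600000 in WT from 2.5 to 10 hpf. In Rad21 MO they rose from 940200 at 4.5 hpf to 1141000 at 5.3 hpf. Both rises of the ring sum were smaller in proportion than these, so their direction depends on scale. The sum of mcm3, mcm3l, mcm4, mcm5, mcm6, mcm6l and mcm7 was 531.4, 596.6 and 559.5 FPKM in WT at 4.5 hpf, 658.8, 683.3 and 644.6 at 5.3 hpf and 713.7, 763.6 and 859.1 at 10 hpf. In Rad21 MO embryos it was 432.8, 430.0 and 386.5, then 466.4, 471.9 and 488.0, then 382.3, 358.6 and 402.0 FPKM. These groups did not overlap at any of the 3 stages, and on the deposited scale Rad21 MO stood at 74.0%, 71.8% and 48.9% of WT. Each exact two-sided permutation p was 0.1, the smallest possible here, and 0.25 after adjustment over 10 comparisons. In CTCF MO the sum was 496.5 ± 69.5 FPKM at 4.5 hpf (88.3% of WT, overlapping). At 5.3 hpf it was 503.2 ± 21.4 (76.0%, not overlapping, exact permutation p = 0.1, adjusted 0.25) and at 10 hpf 712.5 ± 15.9 (91.5%, exact permutation p = 0.2). These percentages are not adjusted for library totals. Mean FPKM sums of all genes at 4.5 hpf were 940200 in Rad21 MO against 1164000 in WT. At 5.3 hpf they were 1141000 in Rad21 MO and 1214000 in CTCF MO against 1460000. At 10 hpf Rad21 MO stood at 1572000 against 1600000. Relative to library totals, the shortfall of Rad21 MO at 4.5 and 5.3 hpf and of CTCF MO at 5.3 hpf is therefore much smaller. Whether these groups still lie apart from WT on that scale is not given here.

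One WT library at 10 hpf stood apart in another pathway. The summed FPKM of 14 genes, p53 and its targets, was 2948 in WT column 0 and 775.1 and 655.9 in the others. In Rad21 MO it was 3750, 4695 and 4064, and in CTCF MO 2286, 638.3 and 2768. The p53 list is made of genes that respond to DNA damage and stress; 3 of the 13 tested were higher in Rad21 MO than in WT and none lower, with a median change of 2.33, when 0.789% of all genes were called higher and 2.44% lower. Without WT column 0, which also had the lowest summed ring genes of WT, 8 of 13 were higher and the median was 2.96, with 1.02% of all genes called higher and 2.42% lower. That column was left out for its high p53 sum, so the larger p53 count and median follow from the choice and test nothing. The same 5 members count as lower without WT column 0: mcm3 at -1.40, mcm4 at -1.17, mcm5 at -1.33, mcm6 at -1.23 and mcm10 at -1.05. What part the p53 response has in the level of the members was not tested.

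Around the ring, other genes of DNA replication moved in the same direction in Rad21 MO embryos at 10 hpf. Of 24 genes of the replication fork (polymerases, clamp, clamp loader, single-strand binding, ligation and histone delivery) 16 fell and none rose, all 24 had values below 0, and the median change was -0.61 against 0.02 for all genes, of which 2.44% were called lower and 0.789% higher. Among them fen1, the flap endonuclease of Okazaki fragments, was at 118.3 ± 8.70 against 184.5 ± 7.29 FPKM (log2 change -0.64, adjusted p = 0.013, limma). The rpa1 RNA, for the large subunit of the single-strand binding complex, was at 96.9 ± 3.42 against 156.2 ± 18.3 (-0.68, adjusted p = 0.013). The polymerase delta gene pold1 was at 27.3 ± 1.96 against 48.1 ± 6.90 (-0.79, adjusted p = 0.0169). These 3 changes were smaller than those of mcm3, mcm4, mcm5 and mcm6; the difference was not tested. The fork count was 17 of 24 without WT column 0.

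The genes that load and activate the ring gave fewer calls, to be read against the same 2.44% lower and 0.789% higher of all genes. Of 9 origin licensing genes 3 fell and none rose (median -0.62): the loader cdt1 (-0.62, adjusted p = 0.0272, limma), its inhibitor gmnn (-0.70, adjusted p = 0.0271) and the origin recognition subunit orc6 (-0.60, adjusted p = 0.0423). Of 15 genes that activate the helicase 4 fell (median -0.47), among them wdhd1, which couples polymerase alpha to the helicase, at 14.7 ± 2.08 against 38.5 ± 4.29 FPKM (-1.34, adjusted p = 0.00687). The cyclin ccne2 (-1.14, adjusted p = 0.00899) and cdc45, which joins the active helicase (-0.73, adjusted p = 0.0246), were the next by adjusted p. Of 7 genes of nucleotide supply 1 fell, rrm1 (-0.54, adjusted p = 0.0346), and of 8 checkpoint genes 1, chek1 (-0.61, adjusted p = 0.0392). Of 13 E2F and Rb genes e2f8 fell (-0.62, adjusted p = 0.0319) and RBL2 rose (2.46, adjusted p = 0.0435). Of 4 relatives of the MCM genes mcmbp, whose product binds MCM complexes, fell (-0.84, adjusted p = 0.0342). Without WT column 0, 2 licensing genes, 4 activators, 2 genes of nucleotide supply and 1 MCM relative were called lower. No checkpoint gene and no E2F or Rb gene was called lower then, so the calls of chek1 and e2f8 ended. Of all genes, 2.42% were then called lower and 1.02% higher. In CTCF MO embryos at 10 hpf the fork genes had a median of -0.10, the licensing genes -0.03 and the activators -0.06.

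**Figure D4:**
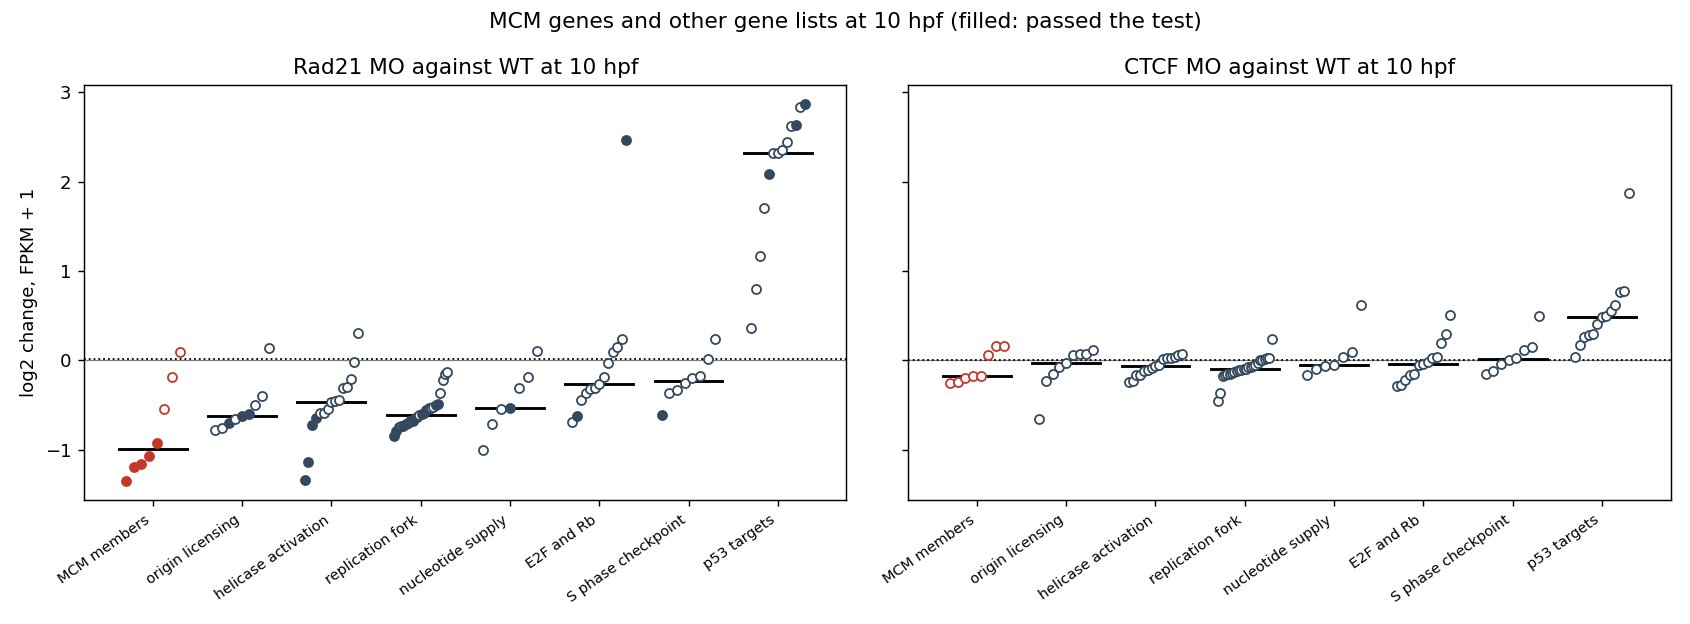
Log2 change against WT at 10 hpf (vertical axis, on FPKM + 1) for each tested gene of the MCM members (red) and of 7 other lists (dark points), Rad21 MO on the left and CTCF MO on the right. Filled points passed the test, black bars are list medians and the dotted line is the median of all genes; in Rad21 MO all 24 replication fork genes lie below 0 and all 13 p53 genes above it.

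At 4.5 and 5.3 hpf the replication lists did not move as one in Rad21 MO embryos. Of all genes, 10.1% were called lower and 10.6% higher at 4.5 hpf, and 9.9% and 12.2% at 5.3 hpf, so counts of 1 or 2 in these lists lie near the background. The directions depend on scale. With libraries rescaled to one FPKM sum, lower calls of all genes went from 1501 to 73 at 4.5 hpf and from 1506 to 106 at 5.3 hpf. Higher calls went from 1576 to 1950 and from 1856 to 3534. For CTCF MO at 5.3 hpf, lower calls went from 589 to 88 and higher calls from 772 to 1680. The calls in these lists were not examined after rescaling. At 4.5 hpf 6 of 24 fork genes fell and 1 rose: pcna, the sliding clamp, was at 316.1 ± 30.6 against 498.6 ± 64.8 FPKM (-0.65, adjusted p = 0.0131, limma), while the clamp loader rfc1 was higher (0.99, adjusted p = 0.0218). Among the activators ccne2 fell (-1.31, adjusted p = 0.00692) and cdc45 rose, 39.1 ± 7.97 against 16.4 ± 2.27 FPKM (1.20, adjusted p = 0.00824), 4 being higher and 3 lower of 15. These 4 genes also changed over time in WT: from 3.3 to 4.5 hpf cdc45 fell (-1.79, adjusted p = 3.77e-07) and rfc1 fell (-1.96, adjusted p = 1.18e-05), while pcna (0.91, adjusted p = 6.06e-05) and ccne2 (4.84, adjusted p = 1.05e-08) rose. Over that step 25.3% of all genes were called higher and 21.4% lower. The WT courses of the other called fork genes and activators are not given here, and a link between the 2 comparisons was not tested. At 5.3 hpf 7 of 24 fork genes fell and 1 rose, and of 9 licensing genes 2 fell and 2 rose, among them cdt1 (-0.45, adjusted p = 0.00937) and orc6 (0.53, adjusted p = 0.0066). In CTCF MO at 5.3 hpf, where 3.87% of all genes were called lower and 5.07% higher, 1 of 24 fork genes rose and none fell, a share near the background. There 2 of 15 activators fell (ccne1 -0.54, adjusted p = 0.0116, and ccne2 -0.70, adjusted p = 0.0411), and among the MCM relatives mcmbp fell (-0.44, adjusted p = 0.0131) and mcm9 rose (0.60, adjusted p = 0.0411).

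Some marks of developmental progress stood apart from WT at 4.5 and 5.3 hpf, while others overlapped WT or differed earlier in the other direction. At 3.3 hpf the summed early zygotic genes were higher in Rad21 MO, from 538.0 to 728.3 FPKM against 300.1 to 408.0 in WT. At 5.3 hpf the summed yolk syncytial markers overlapped, from 354.8 to 412.6 FPKM in Rad21 MO and from 345.2 to 453.0 in WT. That sum pools genes that went opposite ways. In all libraries mxtx2 lay above WT (mean 90.2 against 57.9 FPKM), while mxtx1 (85.3 against 103.3) and hnf4a (60.9 against 78.7) lay below. None of them passed, and 20.8% of all genes lay above and 20.3% below in this way. The summed early zygotic genes were lower at 5.3 hpf, from 3329 to 3537 FPKM in Rad21 MO against 3552 to 4496 in WT. Egg-supplied btg4 RNA, which WT embryos clear early, stood at 32.6 ± 6.19 FPKM at 4.5 hpf in WT, 213.1 ± 60.9 in Rad21 MO embryos and 94.7 ± 26.3 where CTCF was targeted. At 5.3 hpf it was at 14.4 ± 7.75, 125.7 ± 51.2 and 58.6 ± 4.36 (SD, n = 3). At 4.5 hpf in Rad21 MO, when 10.6% of all genes were called higher and 10.1% lower, 4 of 9 oocyte genes tested were higher and none lower (median 1.09). Of 16 early zygotic genes 2 were higher, near the background, and 4 lower (median -0.31). The summed enveloping layer markers ran from 1155 to 1884 FPKM in WT and from 706.8 to 1060 in Rad21 MO at that stage, and at 10 hpf from 7832 to 11150 and from 10840 to 12930. At 4.5 hpf in Rad21 MO, 3 of 5 germline genes were called higher and none lower, against the 10.6% and 10.1% of all genes given above. There vasa, a germline RNA helicase named here after its values were seen, lay below WT in all libraries. It stood at 49.5 ± 6.82 against 68.1 ± 10.6 FPKM (log2 change -0.45, adjusted p = 0.0562, limma). At 10 hpf the summed yolk syncytial markers ran from 141.6 to 219.6 FPKM in WT and from 157.2 to 204.1 in Rad21 MO, and those of later tissues from 75.1 to 89.2 and from 60.8 to 78.5. By then btg4 was down to 0.912 ± 0.690 FPKM in WT and 1.85 ± 0.374 in Rad21 MO. Of 7 oocyte genes tested at 10 hpf in Rad21 MO, 0 were called (median -0.003). Of all genes, 0.789% were called higher and 2.44% lower. What part the pace of development or the mix of cells has in the members' levels was not tested.

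Likeness between the members' courses is described here by Pearson's r over the means of the 15 groups. The 5 stages are common to the 3 treatments, so the points are not independent and no test is attached to them. The newly made copies mcm3 and mcm6 ran together (r = 0.982), as did the l copies mcm3l and mcm6l (0.958), and mcm4 and mcm5 (0.925), while mcm6 and mcm10 ran opposite (-0.920). The other values grade between these: mcm7 had r = 0.861 with mcm3, 0.795 with mcm6, 0.749 with mcm4 and 0.533 with mcm5, and mcm10 had 0.832 with mcm3l. Among 9230 genes with a mean of at least 5 FPKM, those most like mcm3 were MCM3 (2 of 2) (0.998), tmcc3 (0.990) and crnkl1 (0.990). Those most like mcm6 were hmga1a (0.995), SLC13A4 (0.995) and tfap2c (0.994). For mcm4 they were hspd1 (0.928), mcm5 (0.925) and nup50 (0.922), and for mcm5 mcm4, wdr12 (0.915) and nol6 (0.915), lower values than for the copy pairs. The l copies led with FGD4 (2 of 2), sh2d5 and acap3b (each 0.997) for mcm3l and with aldh18a1 (0.998), gyg1a (0.998) and tatdn2 (0.997) for mcm6l. For mcm10 the list was exo1 (0.986), a nuclease of DNA repair, dnmt1 (0.978), the maintenance DNA methyltransferase, and chek2 (0.970), and for mcm7 gnb1b (0.976), sept7b (0.968) and rbm17 (0.964).

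The authors' deposited tables of significant genes list a similar set. Their group FPKM are scaled otherwise than the values used here: mcm4 in WT at 4.5 hpf is 90.65 there and 110.6 here. Sizes of fold changes are therefore not directly comparable, and the list sizes below are numbers of genes listed, not shares of genes tested. In the authors' deposited table for Rad21 MO at 4.5 hpf 3 members are listed, mcm6 (log2 fold change -1.37), mcm3 (-0.96) and mcm4 (-0.39), among 3668 genes. The authors' deposited table at 5.3 hpf lists mcm6 (-1.08), mcm3 (-0.67), mcm4 (-0.49) and mcm6l (-0.40) among 3525. At 10 hpf the authors' deposited table holds 6 members, mcm3 (-1.39), mcm5 (-1.22), mcm4 (-1.19), mcm6 (-1.10), mcm10 (-0.99) and mcm7 (-0.58), among 1496 genes. The authors' deposited table for CTCF MO at 5.3 hpf holds mcm3 (-0.77), mcm6 (-0.62), mcm5 (-0.58), mcm6l (-0.45), mcm4 (-0.44) and mcm3l (0.62) among 2172. The members are in none of the other 6 tables. At 4.5 hpf mcm7, at 5.3 hpf mcm5 and mcm7 in Rad21 MO are called here and are not in those tables. In turn the tables hold mcm6l for Rad21 MO at 5.3 hpf, mcm7 at 10 hpf, and mcm6 and mcm6l for CTCF MO at 5.3 hpf, which limma did not call.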

How the data were processed

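Expression was read from a table of FPKM values that the authors deposited. The submitters' processing notes name TopHat2 2.0.9, Cufflinks 2.2.0, Cuffdiff and the genome build Zv9 (danRer7). How libraries were scaled is not given in the sources used here, nor is the Cuffdiff version or strand setting. Further tables deposited by the authors hold, for genes they marked significant, log2 fold changes, a test statistic (a score), p-values and q-values. From 25.8% to 37.2% of low genes shared the commonest ratio between libraries, which does not allow whole reads to be recovered, and tests made for counts were left out. FPKM depends on annotated length and on what else a library holds, and no read depth or counting interval can be given.

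The test was limma 3.58.1 (two-sided, with a mean-variance trend) on log2(FPKM + 1), run in R 4.3.3 with data.table, version 1.17.8. It covered genes at 1 FPKM or more in at least 3 libraries that entered the fit. Benjamini-Hochberg adjustment ran over all genes tested and a call is an adjusted p under 0.05. Fold changes on this scale understate low genes. A fit used the 9 libraries of a stage, the 15 of WT for the time course, or all 45 for changes of an effect. The fit was tested on simulated data. Shares and sums were compared by exact permutation with scipy 1.17.1 in Python 3.11.15 (pandas 2.3.3, numpy 2.4.6, matplotlib 3.10.9). Groups come from the sample titles; a column is the number in the table's column name, which carries no replicate letter. Alternatives were another pseudocount (0.1), no filter on low values, 3 other scalings, all 45 libraries in 1 fit and each library left out; summing mcm3 with MCM3 (2 of 2) was added after seeing the data.

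Every member that passed the filter was tested in each comparison, but the text does not name each of them for each comparison. Of each list up to 3 genes per comparison were eligible: those with the smallest adjusted p among genes that passed, with libraries that do not overlap and at least 5 FPKM in the higher group. Like genes are the 3 with the highest r. The 14 p53 genes, the oocyte, early zygotic, enveloping layer, yolk, germline, ovarian and later tissue lists serve as marks of state. The members and the lists were chosen with earlier results of these data known. Coordinates are those of the authors' file; whether they count from 0 or 1 is not stated.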

Additional observations from a re-analysis of the deposited data

Results flagged for a closer look

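Of the tests of a changing knockdown effect, 3 members passed, all for Rad21 MO from 5.3 to 10 hpf, where the effect at 10 hpf was more negative than at 5.3 hpf. The difference of log2 changes was -0.64 for mcm4, -0.83 for mcm5 and -0.82 for mcm10 (limma, adjusted p = 0.00126, 0.000583 and 0.0142). Without WT column 0 at 10 hpf, the library high in p53 targets, these were -0.65, -0.97 and -0.95. The values of mcm4 and mcm5 passed in all 18 alternatives, with adjusted p from 5.68e-05 to 0.00624 and from 3.44e-05 to 0.00336; that of mcm10 ranged from 0.00473 to 0.0618.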

How the results depend on the processing

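Of 45 member calls, rescaling to one FPKM sum ended 17 and turned 2, quantile normalization ended 10, no filter 5, a pseudocount of 0.1 ended 2 and summing the mcm3 rows 1; all 45 libraries in 1 fit (25 calls) and median-ratio scaling ended none, and leaving out 1 library ended 75 of 288 repeats. Rescaling gave 1 member lower for Rad21 MO at 4.5 hpf, 1 higher and 1 lower at 5.3 hpf, 0 lower for CTCF MO at 5.3 hpf, 0 and 3 lower for Rad21 MO against CTCF MO at 4.5 and 10 hpf, and 1, 2 and 2 higher in WT from 2.5 to 3.3, 3.3 to 4.5 and 5.3 to 10 hpf. It turned mcm4 and mcm5 in WT from 3.3 to 4.5 hpf to -0.16 and -0.21, and the summed ring genes of CTCF MO at 2.5 and 3.3 hpf to 25.3 and 12.3 FPKM above WT, from -11.1 and -3.76. Quantile normalization gave 2 and 3 lower for Rad21 MO at 4.5 and 5.3 hpf, 0 higher for CTCF MO at 5.3 hpf and 1 and 2 higher in WT from 2.5 to 3.3 and 3.3 to 4.5 hpf. No filter gave 0 higher for CTCF MO at 5.3 hpf. No filter and a pseudocount of 0.1 each gave 0 lower for Rad21 MO against CTCF MO at 4.5 hpf, and that pseudocount gave 2 higher in WT from 2.5 to 3.3 hpf. The fit of all 45 libraries gave 1 lower for CTCF MO at 4.5 hpf and 2 lower for Rad21 MO against CTCF MO at 4.5 hpf. The cause of these shifts was not tested.

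Leaving out 1 library, the count of members lower ranged for Rad21 MO from 1 to 4 at 4.5 hpf, 2 to 4 at 5.3 hpf and 4 to 5 at 10 hpf, for CTCF MO at 5.3 hpf from 1 to 4 with 0 to 1 higher, and for Rad21 MO against CTCF MO from 0 to 0 at 4.5 hpf and 1 to 4 at 10 hpf. The CTCF MO effect from 5.3 to 10 hpf gave 0 to 1 higher. The difference of the ring sum from WT ranged from -1.44 to 17.3 FPKM (Rad21 MO, 2.5 hpf), -33.4 to 12.01 (CTCF MO, 2.5 hpf) and -33.8 to 24.4 (CTCF MO, 3.3 hpf, 3.72 without WT column 2). Shares in CTCF MO ranged from -0.438 to 0.132 points for mcm3l at 3.3 hpf, and for mcm6l from -3.89 to 1.75 at 4.5 hpf (0.986 without CTCF MO column 2), -1.50 to 7.53 at 5.3 hpf and -0.0228 to 0.810 at 10 hpf. No paired analysis was possible because the columns carry no replicate letter that could match libraries across groups. FPKM without read totals leaves the counting error of low values, such as mcm3 and mcm6 at 2.5 hpf, unknown.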

Other observations

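Further genes of S phase control gave calls in the comparisons above. They were picked from the lists of 14 E2F and Rb genes and 8 checkpoint genes, whose counts in these comparisons are not given here. In WT from 3.3 to 4.5 hpf, the cell cycle transcription factor gene e2f7 rose by 3.76 on the log2 scale (limma, adjusted p = 4.78e-09). Over that step 25.3% of all genes were called higher and 21.4% lower. The checkpoint genes rad17 and chek1 fell over the same step (-1.71 and -1.23, adjusted p = 7.42e-08 and 3.95e-06). In Rad21 MO embryos rad17 was higher than WT at 4.5 hpf, at 24.2 ± 0.690 against 6.54 ± 0.145 FPKM, and at 5.3 hpf, at 16.5 ± 3.04 against 4.79 ± 0.166 (SD, n = 3; 1.74 and 1.58, limma, adjusted p = 0.00162 and 0.000689). In both knockdowns chek1 was higher than WT at 5.3 hpf, by 0.78 in Rad21 MO and 0.91 in CTCF MO (limma, adjusted p = 0.00553 and 0.00709). These knockdown comparisons share their WT libraries. Of all genes, 10.6% were called higher and 10.1% lower in Rad21 MO at 4.5 hpf, and 12.2% and 9.9% at 5.3 hpf. In CTCF MO at 5.3 hpf 5.07% were called higher and 3.87% lower.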
